A study of Saccharomyces cerevisiae with 8 samples.

Results

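The small subunit processome and the factors that finish the 40S ribosomal subunit were followed through 50 genes of budding yeast, chosen by gene name and function. All 50 were found among the 6256 probes of the array, each with 1 probe, and NOC4 was listed under its other name UTP19. Transcripts of the pressure-sensitive mutant strain a924E1 were compared with those of its parent strain KA31a, with 4 cultures and 4 one-colour arrays per strain. Cells of both strains had been grown at 30 °C for 48 h in YPD, a rich medium of yeast extract, peptone and glucose, and the labels name no pressure treatment of these cultures. The labels call a924E1 a pressure-sensitive mutant and do not name the mutated gene, so no targeted gene could be checked. Mutant cultures are numbered 1, 3, 5 and 7 and parent cultures 2, 4, 6 and 8.

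The processome is a large nucleolar assembly that forms on the growing ribosomal RNA precursor around the U3 small nucleolar RNA. It folds the part that becomes 18S rRNA, directs the cuts that release it, and hands the particle to later factors that carry it to the cytoplasm. In yeast, the genes of this machinery belong to the ribosome biogenesis regulon, which is known to be strongly transcribed in fast growth on glucose and turned down when growth slows.

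Signals of these genes were weak, and weaker in the mutant. A probe is called above background where the signal-to-noise ratio reached 3 in both of its spots. By this measure 17, 21, 1 and 0 of the 50 members were above background on mutant arrays 1, 3, 5 and 7, against 46, 50, 31 and 3 on parent arrays 2, 4, 6 and 8. Brightness of the whole array moved with this: the median signal over background of all spots was 82, 112, 16 and 5 units on the mutant arrays, against 163, 182, 54 and 15 units on the parent arrays. Mutant arrays 5 and 7 and parent array 8 were read at a scanner gain of 700 and the others at 600. No member was above background on all 8 arrays, 27 were so on no mutant array, and 3 (NSR1, LTV1 and DIM1) were so on all 4 parent arrays. The slide had 2 columns, one with the mutant arrays and one with the parent arrays, so column and strain cannot be told apart. In these whole-culture samples, fewer cells that make a transcript and less of it per cell cannot be told apart either.

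Without any normalization, the members were dimmer relative to the rest of the array in the mutant. Their median signal over background was 22.6%, 17.9%, 18.2% and 20.0% of the median of all probes on mutant arrays 1, 3, 5 and 7. It was 70.1%, 62.5%, 60.0% and 66.7% on parent arrays 2, 4, 6 and 8. The dim and the bright arrays of a strain thus gave similar shares, and the strains did not overlap. On mutant arrays 5 and 7, however, the members' median was only 3.0 and 1.0 units, near background, so those shares are coarse.

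**Figure D1:**
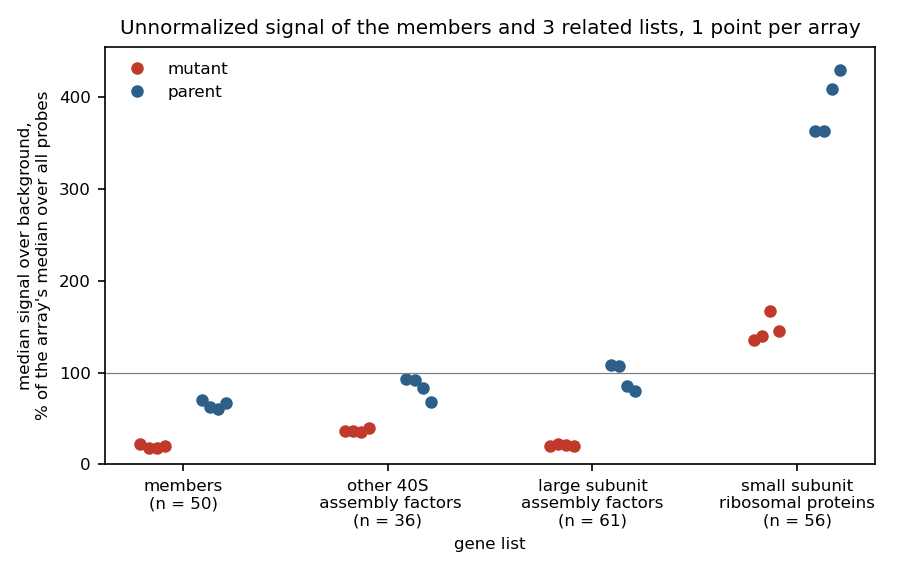
Median signal over background of the 50 members and of 3 related gene lists, as a percent of the same array's median over all probes (y axis), with 1 point for each of the 4 mutant arrays (red) and the 4 parent arrays (blue). For the members the mutant points lie between 17.9% and 22.6% and the parent points between 60.0% and 70.1%, and in the other lists too every mutant point lies below every parent point.

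After background correction and quantile normalization on the log2 scale, 23 of the 50 members were lower in the mutant at a limma adjusted p under 0.05, where 14.0% of all genes were. None was higher, where 12.7% of all genes were, and 27 members did not pass in either direction. No member was higher at an unadjusted p under 0.05 either, against 32 that were lower. Of all 6256 genes, 2295 passed this threshold in either direction. The median difference of mutant minus parent was -0.33 over the 50 members and 0.05 over all 6256 genes. Of the 50 members, 48 had a negative difference, as did 2650 of all genes, but with 75th percentile and median scaling of the arrays 35 and 44 members did. All 4 mutant values lay below all 4 parent values for 25 members (14.7% of all genes did so), 22 of which passed the test. The number of calls depended on the scaling: with arrays scaled to their 75th percentile 1 member (NSR1) was called lower, and with arrays scaled to their median 2 (NSR1 and LTV1). Over all genes the calls were then 57 lower and 0 higher with the 75th percentile and 37 lower and 0 higher with the median, against 873 lower and 794 higher with quantile normalization. These scalings moved the median difference of all genes to 0.21 and 0.15, and relative to it the members' median was -0.38 with both, against -0.39 with quantile normalization.

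**Figure D2:**
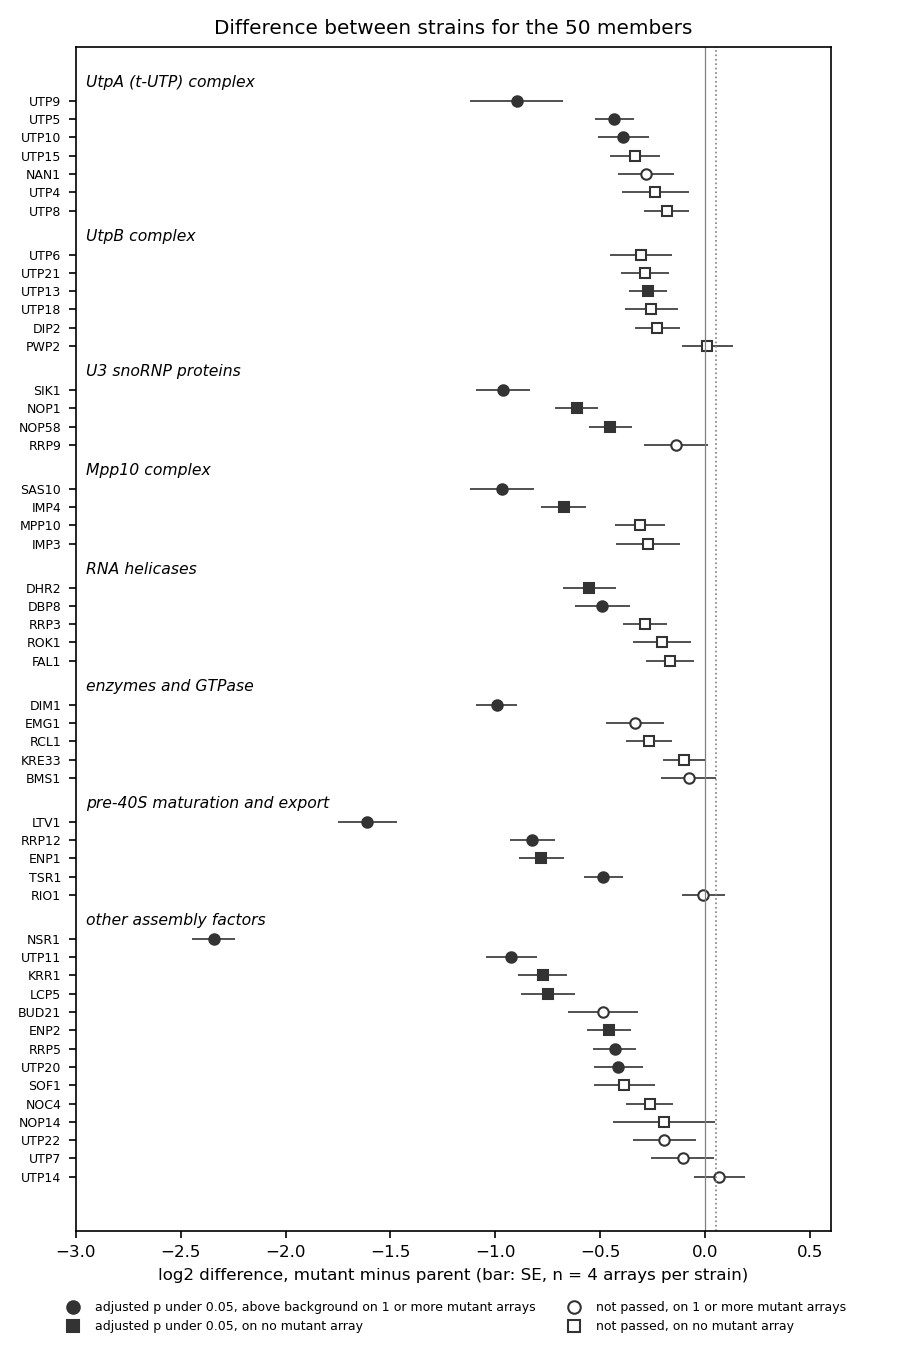
Log2 difference of mutant minus parent for each of the 50 members, grouped by role, with bars for the standard error (n = 4 arrays per strain). Filled symbols passed at an adjusted p under 0.05, squares mark members above background on no mutant array, and the dotted line is the median of all genes at 0.05; the called members all lie left of 0, with NSR1 at -2.34 and LTV1 at -1.61 the farthest.

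Within the slide rows, each of which holds 1 mutant and 1 parent array, the members' median difference was -0.48, -0.40, -0.31 and -0.34 in rows 1 to 4. The mutant value was the lower in 48, 49, 39 and 44 of the 50 members, and in 2914, 2757, 2832 and 2949 of all 6256 genes. Among arrays of gain 600 the median difference was -0.40, with 29 members (against 14.8% of all genes) called lower. Among those of gain 700, with 2 mutant arrays and 1 parent array, it was -0.28. There 2 members (NSR1 and LTV1) were called, in a fit that assumes the lone parent array varies like the mutant arrays.

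An offset of 50 units was added before taking logarithms, so the differences of dim genes are understated. Of the 23 members called lower, 9 were above background on no mutant array. For those only a lower bound of the fold can be given, and it exceeded 1 for ENP1 alone, so the other 8 are given without a fold.

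The nucleolar protein NSR1 (YGR159C), the yeast counterpart of nucleolin, which acts in pre-rRNA processing, differed most of all members. Its normalized log2 level was 6.52, 6.55, 6.44 and 6.51 on mutant arrays 1, 3, 5 and 7, against 9.03, 8.78, 8.85 and 8.73 on parent arrays 2, 4, 6 and 8. The strains were separated by far more than the spread within either. NSR1 was 5.07-fold lower, a log2 difference of -2.34 ± 0.10 (SE, n = 4 per strain, limma adjusted p = 6.53e-08). Background was exceeded on 2 mutant and 4 parent arrays. In unnormalized units its signal over background was 45.5, 67.5, 7.0 and 2.5 on the mutant arrays, against 1206.5, 1110.5, 410.5 and 115.0 on the parent arrays. Even so, the dimmest parent array exceeded the brightest mutant array. NSR1 was the member called under all alternative settings that could test it, with differences between -2.96 and -2.17.

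Among the factors of late pre-40S maturation and export, 4 of 5 fell (80.0%, against 14.0% of all genes), 0 rose and RIO1 did not pass. LTV1 (YKL143W), which binds the pre-40S particle and acts in its maturation and export, had levels of 6.61, 6.70, 6.37 and 6.1 on mutant arrays 1, 3, 5 and 7, against 8.0, 8.21, 7.90 and 8.1 on parent arrays 2, 4, 6 and 8. The lowest parent value exceeded the highest mutant value by more than either strain's own range. LTV1 was 3.05-fold lower, a difference of -1.61 ± 0.14 (SE, n = 4 per strain, limma adjusted p = 1.61e-05). Background was exceeded on 1 mutant and 4 parent arrays.

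RRP12 (YPL012W), a HEAT-repeat protein needed for export of the subunits, had levels of 6.69, 6.73, 6.71 and 6.55 on the mutant arrays, against 7.58, 7.59, 7.53 and 7.28 on the parent arrays. It was 1.77-fold lower (difference -0.82 ± 0.11, adjusted p = 0.000247). ENP1 (YBR247C), a nucleolar protein that stays with the particle into the cytoplasm, had levels of 6.15, 6.12, 6.35 and 6.05 in the mutant, against 6.93, 6.79, 7.03 and 7.04 in the parent. The strains did not overlap for either gene. ENP1 exceeded background in the parent only, on 3 arrays, and its transcript was lower by at least 1.07-fold (adjusted p = 0.000362). TSR1, a GTPase-like factor that blocks early joining of the large subunit, was 1.40-fold lower (adjusted p = 0.00268).

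RIO1 (YOR119C), the kinase that acts in the last steps of 18S rRNA maturation, had nearly equal means in the strains. Its values were 7.78, 7.87, 7.79 and 7.56 on the mutant arrays, against 7.68, 7.82, 7.76 and 7.77 on the parent arrays, with a difference of -0.01 ± 0.10 (adjusted p = 0.96). The parent's range lay within the mutant's. RIO1 was above background on 3 arrays of each strain, so its signal was among the better measured here, although its duplicate spots differed by a median of 0.57 on the log2 scale.

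**Figure D3:**
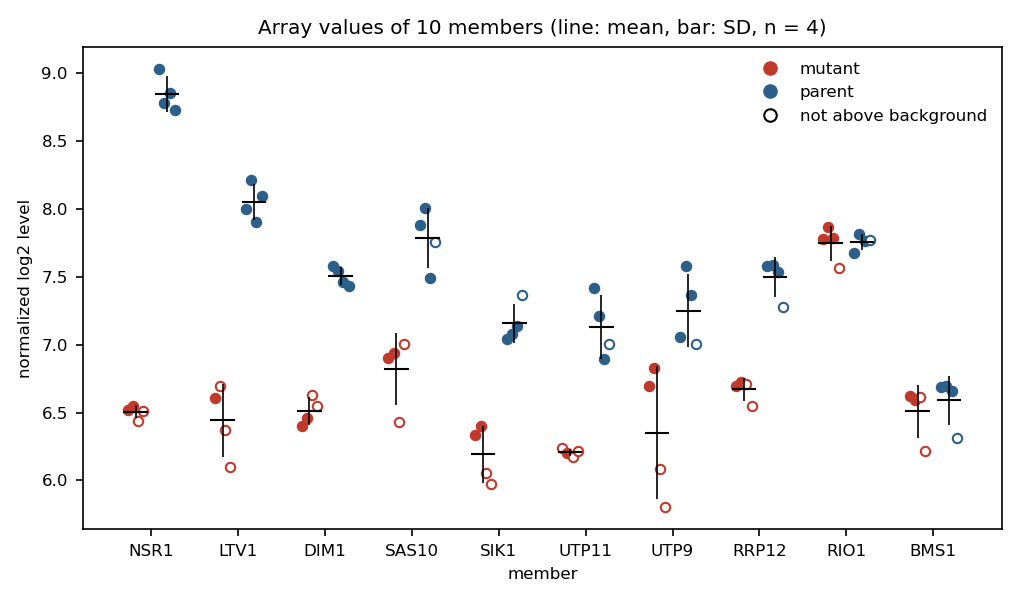
Normalized log2 levels (y axis) of 10 members on the 4 mutant arrays (red) and the 4 parent arrays (blue), with the mean (line) and SD (bar). Open points were not above background. The first 8 members are separated between the strains, whereas RIO1 (mutant mean 7.75, parent mean 7.76) and BMS1 (6.51 and 6.59) overlap.

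Of the 4 proteins of the U3 small nucleolar ribonucleoprotein, 3 fell, 0 rose and RRP9 did not pass. Of all genes, 14.0% were lower and 12.7% were higher. The 3 that fell are shared by all box C/D particles, which guide 2'-O-methylation of RNA, whereas RRP9 belongs to the U3 particle in particular. SNU13, the other protein shared by these particles, is no member here and was named after its value was seen. It differed by 0.01 (adjusted p = 0.985), but was above background on 0 mutant and 3 parent arrays. Its levels were 6.04, 6.02, 6.40 and 6.65 on mutant arrays 1, 3, 5 and 7, against 6.53, 6.36, 6.27 and 5.93 on the parent arrays. An unchanged level cannot be read from these dim values. SIK1 (YLR197W, also NOP56) had levels of 6.34, 6.40, 6.06 and 5.97 on the mutant arrays, against 7.04, 7.08, 7.14 and 7.36 on the parent arrays. It was 1.95-fold lower (difference -0.96 ± 0.13, SE, n = 4 per strain, limma adjusted p = 0.000275), with 2 mutant and 3 parent arrays above background.

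NOP1 (YDL014W), fibrillarin, the methyltransferase of these particles, read 5.89, 6.03, 5.82 and 5.77 in the mutant, against 6.42, 6.45, 6.62 and 6.47 in the parent (adjusted p = 0.00119). NOP58 (YOR310C), the partner of SIK1, read 5.88, 5.92, 6.1 and 5.97 in the mutant, against 6.33, 6.49, 6.54 and 6.32 in the parent (adjusted p = 0.00733). Both were separated between the strains and above background on 0 mutant and 3 parent arrays. RRP9 read 6.28, 6.31, 6.42 and 6.32 in the mutant, against 6.82, 6.60, 6.45 and 6.02 in the parent (difference -0.14 ± 0.15, adjusted p = 0.546). It was above background on 2 mutant and 3 parent arrays. Only parent array 8 lay below all mutant arrays, and there RRP9 was not above background, at 2.0 units. Its difference was -0.33 among arrays of gain 600 and 0.35 among those of gain 700, with 1 parent array.

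The Mpp10 complex joins the U3 RNA to the precursor. Of its 4 genes, 2 fell (against 14.0% of all genes), 0 rose and 2 did not pass. SAS10 (YDL153C, also UTP3), counted here with the complex, had levels of 6.90, 6.94, 6.43 and 7.01 on the mutant arrays, against 7.88, 8.01, 7.49 and 7.76 on the parent arrays. It was 1.95-fold lower (difference -0.97 ± 0.15, SE, n = 4 per strain, limma adjusted p = 0.000876) with no overlap. IMP4 (YNL075W), which helps the U3 RNA pair with the precursor, read 6.20, 6.07, 6.06 and 5.97 in the mutant, against 6.79, 6.92, 6.67 and 6.61 in the parent (adjusted p = 0.000862), and was above background on no mutant array. MPP10 itself differed by -0.31 (adjusted p = 0.0816). IMP3, the partner of IMP4, read 5.85, 5.77, 6.46 and 5.80 in the mutant, against 6.12, 6.20, 6.34 and 6.32 in the parent. Mutant array 5 alone lay above the parent arrays (adjusted p = 0.227).

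The UtpA complex, also called t-UTP, binds the precursor first and is linked to transcription of the ribosomal DNA. Among its 7 genes there were 3 that fell (42.9%, against 14.0% of all genes), 0 that rose and 4 that did not pass. UTP9 (YHR196W) had levels of 6.69, 6.83, 6.09 and 5.80 on the mutant arrays, against 7.06, 7.58, 7.36 and 7.0 on the parent arrays. The 2 dim mutant arrays were the lowest and the strains did not overlap (1.86-fold lower, difference -0.90 ± 0.22, SE, n = 4 per strain, limma adjusted p = 0.0112). Its call ended among the 5 arrays of gain 600. UTP5 (YDR398W) read 6.39, 6.39, 6.33 and 6.22 in the mutant, against 6.74, 6.75, 6.77 and 6.81 in the parent, a small but even difference of -0.43 ± 0.09 (adjusted p = 0.00532).

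UTP10 (YJL109C), a long HEAT-repeat protein, read 6.20, 6.23, 5.79 and 5.97 in the mutant, against 6.43, 6.37, 6.36 and 6.59 in the parent (adjusted p = 0.0351). Its call ended without mutant 5, without mutant 7 and without any 1 of the 4 parent arrays. It also ended with gain as a block, at gain 600 alone, with no background subtraction, with the deposited value table and with the closest arrays averaged. UTP4, a WD-repeat protein, overlapped, at 6.12, 6.06, 6.62 and 5.85 in the mutant, against 6.18, 6.53, 6.5 and 6.38 in the parent (adjusted p = 0.311). UTP15, UTP8 and NAN1 had adjusted p-values of 0.0578, 0.244 and 0.157.

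The UtpB complex, a second building block that meets the U3 particle early, had 6 genes here, of which 1 fell (16.7%, near the 14.0% of all genes), 0 rose and 5 missed the threshold. None of the 6 was above background on any mutant array. UTP13 (YLR222C), a WD-repeat protein, read 5.82, 5.80, 5.82 and 5.85 in the mutant, against 6.12, 6.17, 6.11 and 5.99 in the parent (adjusted p = 0.048). Its call ended with slide row as a block, with no background subtraction, with the deposited value table, with the closest arrays averaged and in 6 of the 8 fits that left out 1 array. Its sign turned with both scalings, at 0.07 and 0.01. PWP2, another WD-repeat subunit, read 6.14, 5.95, 6.37 and 5.97 in the mutant, against 6.24, 6.07, 6.15 and 5.93 in the parent (difference 0.01 ± 0.12, adjusted p = 0.959). UTP21, UTP6, DIP2 and UTP18 differed by -0.30 to -0.23 without passing.

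RNA helicases remodel the particle by opening RNA duplexes. Of the 5 measured here, 2 fell (against 14.0% of all genes), 0 rose and 3 did not pass. DHR2 (YKL078W), a DEAH-box helicase, read 5.88, 5.88, 6.1 and 6.29 in the mutant, against 6.37, 6.68, 6.62 and 6.68 in the parent, with no overlap (limma adjusted p = 0.00717). No mutant array had it above background, and its call ended with the closest arrays averaged. DBP8 (YHR169W), a DEAD-box helicase, read 6.23, 6.16, 6.43 and 6.22 in the mutant, against 6.73, 7.0, 6.84 and 6.43 in the parent (1.41-fold lower, adjusted p = 0.0167). Its highest mutant and lowest parent values nearly coincided, its duplicate spots differed by a median of 0.54, and its call ended without mutant 3, without parent 4 or without parent 6. FAL1, a DEAD-box helicase, overlapped, at 6.04, 5.93, 6.15 and 6.32 in the mutant, against 6.34, 6.21, 6.16 and 6.39 in the parent (adjusted p = 0.322). RRP3 and ROK1 did not pass at 0.0622 and 0.314.

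Of the 5 RNA-modifying enzymes and GTPase or cyclase-like factors, DIM1 alone fell (20.0%, near the 14.0% of all genes). Of the others, 0 rose and 4 did not pass. DIM1 (YPL266W), which dimethylates adenosines near the end of 18S rRNA, had levels of 6.40, 6.46, 6.63 and 6.55 on the mutant arrays, against 7.58, 7.54, 7.46 and 7.44 on the parent arrays. The values of each strain lay close together and far from the other's. It was 1.99-fold lower, a difference of -0.99 ± 0.10 (SE, n = 4 per strain, limma adjusted p = 4.01e-05), with 2 mutant and 4 parent arrays above background.

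BMS1 (YPL217C), the GTPase of the processome, read 6.62, 6.59, 6.61 and 6.22 in the mutant, against 6.69, 6.69, 6.66 and 6.31 in the parent (difference -0.08 ± 0.13, adjusted p = 0.703). It was above background on 2 mutant and 3 parent arrays, and the array of slide row 4 was the lowest in both strains. The methyltransferase EMG1, the cyclase-like RCL1 and the RNA acetyltransferase KRE33 differed by -0.33, -0.27 and -0.10 without passing, with adjusted p-values of 0.101, 0.0991 and 0.518.

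Among the remaining 14 assembly factors, 7 fell (against 14.0% of all genes), 0 rose and 7 did not pass. Besides NSR1, UTP11 (YKL099C), a small processome protein, had levels of 6.24, 6.20, 6.17 and 6.22 on the mutant arrays, against 7.42, 7.21, 6.89 and 7.0 on the parent arrays. All parent values lay above all mutant values (1.90-fold lower, difference -0.92 ± 0.12, SE, n = 4 per strain, limma adjusted p = 0.000277). UTP11 was above background on 1 mutant and 3 parent arrays.

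KRR1 (YCL059C), a KH-domain protein of the processome, read 5.82, 5.84, 5.82 and 5.97 in the mutant, against 6.68, 6.84, 6.69 and 6.35 in the parent (adjusted p = 0.000694). It was separated between strains and above background on no mutant array. LCP5, a U3-associated protein, and ENP2, a WD-repeat nucleolar protein, were also lower (adjusted p = 0.00131 and 0.00716), likewise with no mutant array above background.

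RRP5, a multidomain protein needed for both ribosomal subunits, was 1.35-fold lower (adjusted p = 0.00955). UTP20, a giant HEAT-repeat protein, was 1.33-fold lower (adjusted p = 0.0223). That call ended without mutant 1, mutant 3, parent 2, parent 4 or parent 6, and with the closest arrays averaged. UTP14, which activates the helicase that displaces U3, had a positive difference of 0.07 ± 0.12 (adjusted p = 0.721), at 6.28, 6.23, 6.52 and 6.20 in the mutant, against 6.28, 6.44, 6.25 and 5.99 in the parent. UTP7, a WD-repeat protein, was above background on 2 mutant and 3 parent arrays and differed by -0.11 (adjusted p = 0.641). BUD21, SOF1, NOC4, NOP14 and UTP22 did not pass, with adjusted p-values of 0.0513, 0.0727, 0.103, 0.6 and 0.387.

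**Figure D4:**
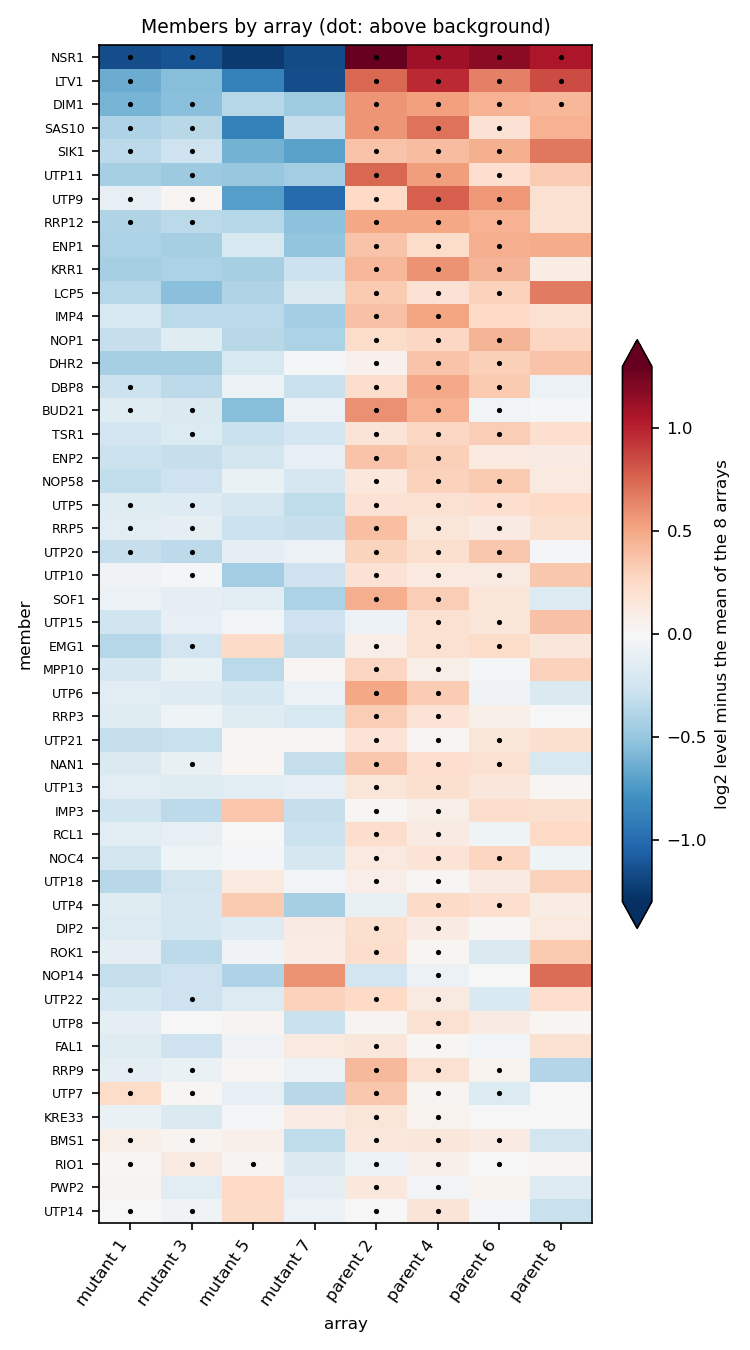
Level of each of the 50 members on each array, as the log2 level minus the member's mean over the 8 arrays (colour), ordered from the most negative difference (NSR1) to the most positive (UTP14), with mutant arrays left of parent arrays. Dots mark arrays on which the member was above background: 17, 21, 1 and 0 members on mutant arrays 1, 3, 5 and 7, against 46, 50, 31 and 3 on parent arrays 2, 4, 6 and 8.

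Beyond the members, 36 other genes of 40S assembly were measured, of which 20 were lower, 0 were higher and 16 did not pass, with a median difference of -0.40. BUD23 (YCR047C), the methyltransferase that modifies a guanosine of 18S rRNA, had levels of 6.43, 6.52, 6.45 and 6.94 on the mutant arrays, against 7.81, 8.14, 8.01 and 8.21 on the parent arrays (difference -1.46 ± 0.14, SE, n = 4 per strain, limma adjusted p = 3.01e-05). PNO1 (YOR145C), a KH-domain protein of the pre-40S particle, exceeded background on 0 mutant and 3 parent arrays and was lower by at least 1.18-fold (adjusted p = 0.000232). DBP4 (YJL033W), a helicase that frees a snoRNA from the particle, exceeded it on the same numbers of arrays and was lower by at least 1.12-fold (adjusted p = 0.000152). Assembly factors of the large subunit gave 42 lower and 0 higher of 61, with a median of -0.63. Ribosomal proteins of the small subunit gave 51 lower and 0 higher of 56, with a median of -0.94. The shares called lower in these lists were 55.6%, 68.9% and 91.1%, against 46.0% of the members and 14.0% of all genes. Of all genes 12.7% were higher. The differences between these lists and the members were not tested. The lists also differed in brightness. On mutant arrays 1 and 3, 49 and 54 of the 56 ribosomal proteins were above background, against 17 and 21 of the 50 members. Because the offset understates the differences of dim genes, these shares and medians do not rank the lists by size of change. Without normalization, the ribosomal proteins' median was 135.4% of that of all probes on mutant array 1 and 363.6% on parent array 2. For the members it was 22.6% and 70.1%.

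No members were next to each other in the reference gene order of protein-coding genes (assembly R64), and the members lay on 13 chromosomes.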

How the data were processed

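Total RNA of 4 mutant and 4 parent cultures was copied to Cy5-labelled cRNA, per the labels' protocols, and hybridised to 1 array each. Per the file headers, slides were read at 635 nm with GenePix Pro 6.1.0.4, and the deposited scanner files give spot and background intensity on a linear scale with no normalization, a signal-to-noise score and the percent of saturated pixels (at most 1 per spot). The authors' deposited value table holds processed intensity per probe and served as an alternative, as log2(value + 50). How it was made, and the array's genome build, are not given in the sources used here.

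Spot medians were corrected with normexp (offset 50), taken to log2, quantile-normalized and averaged within probes (2 spots each) in limma 3.58.1 under R 4.3.3. Strains were compared two-sided with lmFit and eBayes, without covariates, and calls were made at a Benjamini-Hochberg adjusted p under 0.05 over the 6256 probes. The bound for a gene above background on no array of a strain is the other strain's mean level minus the mean, per array of that strain, of the higher of the gene's own level and the lowest level above background. Members, role groups, lists and alternatives were chosen with earlier results of these data known; signal shares and array pairs were added after the data were seen. Array values are given for up to 3 called members per role group with the smallest adjusted p and for the member with the largest. The procedure was tested on simulated data, with changed genes drawn only from probes brighter than the median. The members' median signal lay below that of all probes on every array, so this test does not cover dim members. A table of assembly R64 held 5756 of the 6256 systematic names, all 50 members included. The design text describes independent biological samples. If some share RNA, part of the spread behind the p-values is technical. The number of arrays limits the precision. Promoter motifs were not analysed here.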

Additional observations from a re-analysis of the deposited data

Results flagged for a closer look

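Within each strain's 4 arrays, a value was singled out when its gap to the nearest other exceeded Dixon's 95% critical value, which chance does for about 1 in 20 groups; 5 of 60 groups did. IMP3 read 6.46 on mutant array 5, the highest of the 4 mutant arrays, but was not above background there. BMS1 read 6.22 on mutant array 7 and 6.31 on parent array 8, the lowest of each strain, and both arrays were scanned at a gain of 700 in slide row 4. KRR1 read 5.97 and BUD23 read 6.94 on mutant array 7, the highest mutant value of each. On mutant array 7, the dimmest, 0 of the 50 members were above background, and the part of brightness in these values was not tested.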

How the results depend on the processing

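No paired analysis by culture number was possible because mutants carry odd and parents even numbers; slide row as a block, with 1 array of each strain per row, gave 24 members lower and 919 genes lower and 867 higher, and ended the call of UTP13. Against 23 members called lower, 0 higher, a members' median of -0.33 and 1667 genes called, 75th percentile scaling gave 1 member, a median of -0.17 and 57 genes, and median scaling 2 members, -0.23 and 37 genes. UTP13 reversed under these scalings, to 0.068 and 0.011. Arrays of gain 700 alone, with a single parent array, gave 2 members, -0.28 and 45 genes, and array weights (3.15, 7.85, 0.24 and 0.16 for mutants 1, 3, 5 and 7) gave 42 members and 3034 genes. Keeping probes above background throughout 1 strain (4 of 4 arrays) left 3 members, with a median of -1.61 and 738 genes called; these 3, all lower, passed the filter through the parent, so their direction is no support. On all 8 arrays 298 genes were called and no member was left to test. The median alone moved beyond the spread between arrays with no background subtraction (-0.26), an offset of 16 (-0.58) and the deposited value table (-0.43). It did so too with gain 600 alone (-0.40) and without mutant 5 (-0.39). No member was called higher under any of the alternatives. Leaving out 1 array gave 19 to 26 members, medians of -0.39 to -0.31 and 1205 to 1701 genes, and 19 of the 23 members stayed called in all 8 such fits. Averaging the closest arrays of each strain (mutants 1 and 3, parents 6 and 8) gave 19 members. The causes were not tested. Low signal in the mutant limits all sizes.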
